A study of Mus musculus with 4 samples.

Results

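The genes described here encode 8 inhibitory receptors and related surface proteins of T cells other than PD-1: Lag3, Tigit, Ctla4, Btla, Cd160, Cd101, Cd200 and Cd200r1. They were named one by one, with earlier results of these data known, and all 8 were among the 11027 genes in the tables and the 10960 that were tested. RNA was sequenced from CD4+ T cells of wild type C57BL/6 mice aged 7 to 8 weeks, taken naive from spleen and lymph nodes, activated and given a retrovirus in a neutral culture, and sorted for GFP. The virus carried Tox2, a DNA-binding protein of the TOX family, together with GFP, or GFP only. Sorted cells were then kept in a Tfh-like culture, with IL-6 and blocking antibodies to IFN-gamma, IL-4 and IL-2, or in a Th0 culture with the same antibodies and no IL-6. The groups were thus Tfh-like with Tox2, Tfh-like with GFP, and likewise for Th0, with 1 library each and 4 in all. All cells, controls included, had been activated, infected and sorted. Tox2 came from a virus and so was forced to a level of its own, and whether cells of several mice were pooled is not given in the sources used here.

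Inhibitory receptors are induced when a T cell is activated and restrain signalling through the T-cell receptor and CD28. LAG-3 binds MHC class II, as CD4 does. TIGIT competes with CD226 for CD155, CTLA-4 competes with CD28 for CD80 and CD86, and BTLA and CD160 both bind HVEM, the product of Tnfrsf14. CD200 is a ligand that signals through CD200R1, and CD101 is an immunoglobulin-family protein that marks late exhausted CD8+ T cells in mice. Several of them are also carried by T follicular helper cells, BTLA and CD200 among them, and by exhausted and regulatory T cells.

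Total counts lay between 13015283 and 13673774, so that 3 counts, the most that a count of 0 allows, were 0.216 to 0.230 CPM, a count scaled by library size. Tox2 had 32246 counts in the Tfh-like library with Tox2 virus and 851 in the one with GFP, and 35297 and 144 counts in the Th0 libraries with Tox2 and with GFP, as the labels say. All 4 markers of CD4+ T cells were listed, with a summed level of 706 and 532 FPKM (a count scaled by gene length and library size) in Tfh-like with Tox2 and with GFP, and of 726 and 614 FPKM in Th0 with Tox2 and with GFP. Cd4 itself was higher with Tox2, as given with Lag3 further on. Of the markers of other cells, 1 of 2 for CD8+ T cells was listed. This was Cd8b1, with 127 to 206 counts in a library and the most in Tfh-like with Tox2, while Cd8a was not listed. B cell and myeloid markers (3 of 10 listed) summed to at most 24 and 39 counts. None of the NK, regulatory or gamma-delta T cell markers was among the listed genes. The part of such cells in the results was not tested. In bulk RNA, fewer cells of a type and less RNA per cell cannot be told apart.

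Tox2 libraries held more RNA of 4 of the receptors and less of 2. Over both cultures Lag3, Tigit, Cd160 and Cd101 rose, Btla and Cd200 fell, and Ctla4 and Cd200r1 did not pass the test. The test was edgeR's quasi-likelihood fit of virus and culture over all 4 libraries, with p-values adjusted over all 10960 genes and a threshold of 0.05. Thus 6 of 8 receptor genes passed, 4 higher and 2 lower, where 6.81% of all genes passed, 4.07% higher and 2.74% lower. Since the 8 genes were chosen with earlier results known, the shares are given as a description. The median log2 fold was 0.96 over the 8 genes and 0.00 over all genes. Culture was tested in the same fit. Ctla4 and Cd200r1 rose in Tfh-like cultures, and Btla and Cd200 fell, so that 4 of 8 passed, 2 higher and 2 lower, where 24.2% of all genes did, 14.3% higher and 9.96% lower. Of all genes 1564 rose and 1092 fell with culture, a split that became 1500 and 1649 when libraries were scaled by their total counts. With 1 library a group, the only spread seen is how far the Tox2 effect differs between Tfh-like and Th0 cells. For each gene the fit draws this spread toward that of all genes (1 residual and a median of 5.52 prior degrees of freedom). The p-values of the fit therefore say nothing of the variation among replicate cultures or mice.

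**Figure D1:**
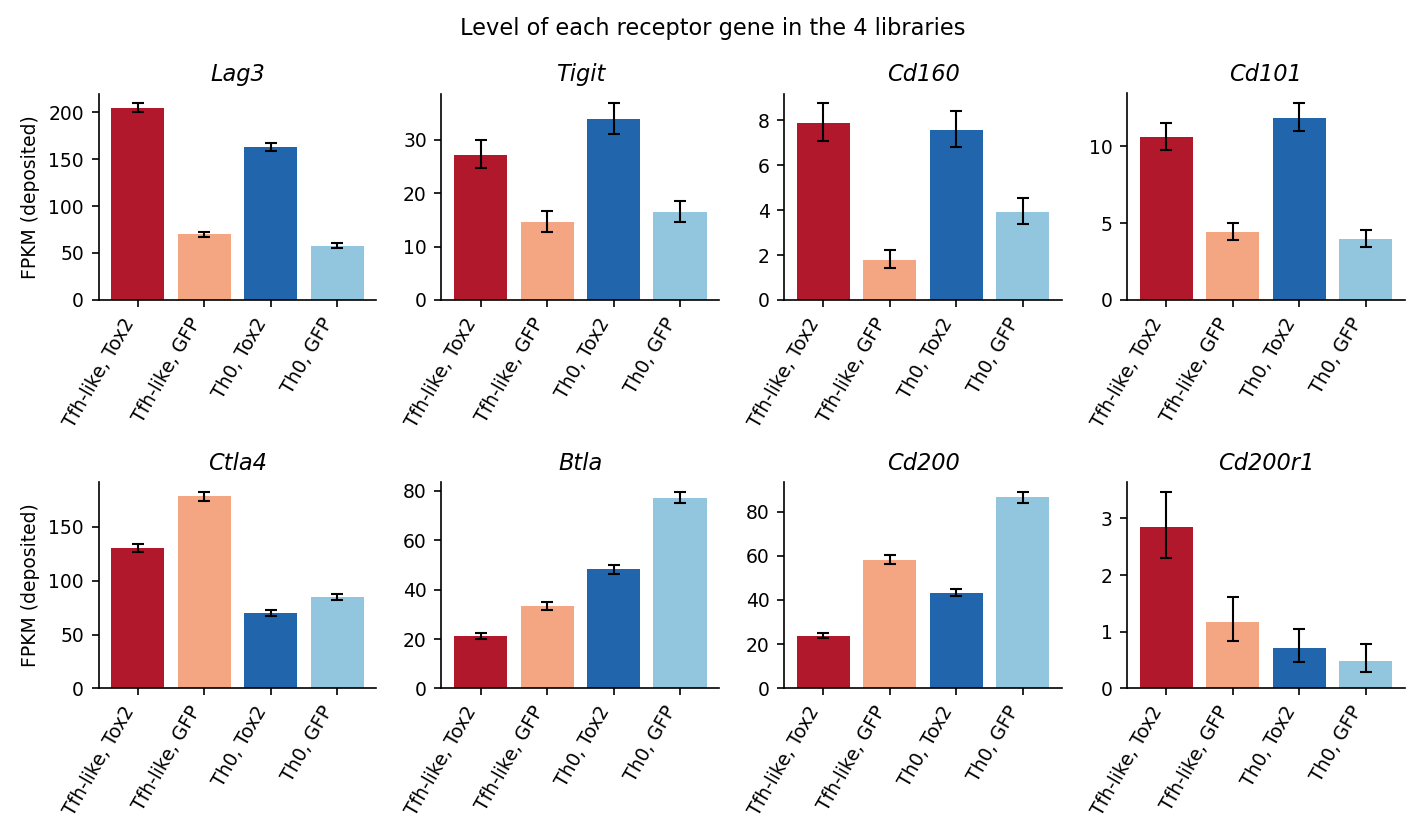
Level of the 8 receptor genes in each library, in FPKM from 0, with 1 bar for each of the 4 libraries and exact 95% intervals for counting error as error bars. In Lag3, Tigit, Cd160 and Cd101 both Tox2 bars stand above both GFP bars, and for Lag3 they reach 205 and 163 FPKM, against 69.7 and 57.8 FPKM with GFP.

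So that genes that moved together can be read side by side, promoters are shown of receptors that rose or fell over both cultures. Each is the stretch of 250 bases before the RefSeq start on GRCm38.p6, written 5′ to 3′ on the strand of the gene. RefSeq promoter entries matched 6 of the 8 genes, namely Tigit, Ctla4, Btla, Cd160 with both of its starts, Cd101 and Cd200. Lag3, which rose, and Cd200r1 had no entry and are not shown. The window of Ctla4 was read for motifs but is not printed. Capitals mark core motifs of factors that act in activated T cells, read on both strands. They are GGAAA (NFAT), TGANTCA (AP-1), TTCNNNGAA (STAT), TCAAAG (TCF and LEF) and TGTGGT (Runx), so TTTCC and ACCACA are the NFAT and Runx cores of the other strand.
Tigit, chr16:43664185-43664434, minus strand: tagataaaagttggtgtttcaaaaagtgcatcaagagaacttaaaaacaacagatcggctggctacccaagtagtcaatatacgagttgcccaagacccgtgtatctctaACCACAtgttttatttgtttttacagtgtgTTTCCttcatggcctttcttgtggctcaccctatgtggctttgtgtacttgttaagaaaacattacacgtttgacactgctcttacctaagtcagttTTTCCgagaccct
Cd101, chr3:101029554-101029803, minus strand: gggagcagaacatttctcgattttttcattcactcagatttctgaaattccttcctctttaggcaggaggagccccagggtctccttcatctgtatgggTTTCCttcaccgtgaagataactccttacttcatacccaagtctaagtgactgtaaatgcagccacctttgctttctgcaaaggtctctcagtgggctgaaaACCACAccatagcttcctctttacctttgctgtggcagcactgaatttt
Cd160 first start, chr3:96829352-96829601, minus strand: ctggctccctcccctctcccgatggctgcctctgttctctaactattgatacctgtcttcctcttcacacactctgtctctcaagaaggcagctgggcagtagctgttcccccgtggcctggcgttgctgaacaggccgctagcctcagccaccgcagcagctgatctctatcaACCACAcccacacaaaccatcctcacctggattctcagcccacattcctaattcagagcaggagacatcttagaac
Cd160 second start, chr3:96814522-96814771, minus strand: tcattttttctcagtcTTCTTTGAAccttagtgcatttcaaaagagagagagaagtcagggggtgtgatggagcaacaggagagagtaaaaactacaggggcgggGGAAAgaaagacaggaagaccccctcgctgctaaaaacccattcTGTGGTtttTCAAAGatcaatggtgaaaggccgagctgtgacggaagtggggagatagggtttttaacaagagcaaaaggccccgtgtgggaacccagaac
Btla, chr16:45224087-45224336, plus strand: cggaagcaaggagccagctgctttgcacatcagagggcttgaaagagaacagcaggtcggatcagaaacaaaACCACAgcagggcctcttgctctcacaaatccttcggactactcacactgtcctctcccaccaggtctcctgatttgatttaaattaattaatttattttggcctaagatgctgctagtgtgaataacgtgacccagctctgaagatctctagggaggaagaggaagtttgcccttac
Cd200, chr16:45409054-45409303, minus strand: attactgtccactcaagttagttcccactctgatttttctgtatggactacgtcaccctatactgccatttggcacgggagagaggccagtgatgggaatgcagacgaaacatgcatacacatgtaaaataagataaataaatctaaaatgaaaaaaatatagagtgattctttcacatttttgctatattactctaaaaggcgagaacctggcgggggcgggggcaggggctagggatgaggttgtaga
The Runx core was in 5 of the 7 windows, belonging to Tigit, Cd101, Cd160 (both starts) and Btla, and 14% of 32851 mouse promoters of the same length hold it. The NFAT core was in 4 of 7 windows (Tigit, Ctla4, Cd101 and the second start of Cd160), with a share of 55.6% among all promoters. The second start of Cd160 also held the STAT motif (7.02% of promoters) and 2 TCF and LEF motifs (13.8% of promoters), one of which overlaps the STAT motif. The AP-1 motif was in none of the 7 (6.75% of promoters), and Cd200 held none of the 5 motifs. A match is a run of letters and not a site known to be bound.

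Lag3 (chr6:124904361-124911705, minus strand, GRCm38) was the most abundant of the 8 genes per length in both Tox2 libraries. Its level was 205 FPKM in Tfh-like with Tox2 and 69.7 FPKM in Tfh-like with GFP, and 163 FPKM in Th0 with Tox2 and 57.8 FPKM in Th0 with GFP. The Tox2 and GFP libraries did not overlap, and each Tox2 library lay far above the GFP library of its own culture. The share of listed genes with a higher level was 1.22% and 1.40% in the Tox2 libraries of Tfh-like and Th0 cells, against 5.28% and 6.37% in their GFP libraries. Over both cultures Lag3 rose 2.84-fold with Tox2 (log2 fold 1.51, SE 0.10, edgeR adjusted p = 0.00216). The folds of the single pairs were close, with a log2 fold of 1.55 (95% counting interval 1.48 to 1.61) in Tfh-like and 1.47 (1.39 to 1.54) in Th0 cells. For culture the log2 fold of Lag3 was 0.29 (SE 0.10, edgeR adjusted p = 0.0762), which did not pass.

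Cd4, the co-receptor whose gene is the listed neighbour of Lag3 at 16140 bases, also rose with Tox2, by less. Its level was 319 and 219.6 FPKM in Tfh-like with Tox2 and with GFP, and 349.6 and 252 FPKM in Th0 with Tox2 and with GFP. The log2 fold of Cd4 for Tox2 was 0.49 (SE 0.09, edgeR adjusted p = 0.0336). The ratio of Lag3 to Cd4 within a library, which does not depend on library scaling, was 0.642 in Tfh-like with Tox2 and 0.317 in Tfh-like with GFP, and 0.465 in Th0 with Tox2 and 0.230 in Th0 with GFP. Both Tox2 libraries had more Lag3 RNA per Cd4 RNA than either GFP library, and their counting intervals did not overlap.

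Tigit (chr16:43648867-43664146, minus strand) encodes the receptor that shares CD155 with CD226 and CD96. Its level was 27.2 FPKM in Tfh-like with Tox2 and 14.6 FPKM in Tfh-like with GFP, and 33.9 FPKM in Th0 with Tox2 and 16.5 FPKM in Th0 with GFP. The groups did not overlap by virus. With Tox2, Th0 cells had somewhat more than Tfh-like cells (log2 fold of Tfh-like against Th0 -0.32, counting interval -0.50 to -0.14). With GFP that fold was -0.19 (-0.46 to 0.06), within counting error. Tigit rose 1.93-fold with Tox2 over both cultures (log2 fold 0.95, SE 0.12, edgeR adjusted p = 0.0123). The log2 fold was 0.88 (counting interval 0.66 to 1.13) in Tfh-like cells and 1.01 (0.80 to 1.23) in Th0 cells. For culture it was -0.26 (SE 0.12, edgeR adjusted p = 0.175), which did not pass.

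The other receptors for CD155 did not all move with Tigit. Cd96 rose with Tox2 by a log2 fold of 0.95 (SE 0.10, edgeR adjusted p = 0.00667), while Cd226, the activating receptor, did not pass. For Cd226 the log2 fold was -0.30 (SE 0.16) over both cultures, with -0.03 in Tfh-like and -0.56 in Th0 cells. The ratio to Tigit in Th0 cells thus holds a lower Cd226 as well as a higher Tigit. The FPKM ratio of Tigit to Cd226 was 3.39 in Tfh-like with Tox2 and 1.80 in Tfh-like with GFP. It was 3.66 in Th0 with Tox2 and 1.23 in Th0 with GFP. Its intervals in the Tox2 libraries (2.93 to 3.93 and 3.21 to 4.19) lay above those in the GFP libraries (1.51 to 2.14 and 1.06 to 1.43).

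Cd101 (chr3:100993529-101029556, minus strand) was at 10.6 FPKM in Tfh-like with Tox2 and 4.43 FPKM in Tfh-like with GFP, and at 11.9 FPKM in Th0 with Tox2 and 3.97 FPKM in Th0 with GFP. These levels split by virus and hardly by culture. Cd101 rose 2.64-fold with Tox2 (log2 fold 1.40, SE 0.13, edgeR adjusted p = 0.00533). In single pairs the log2 fold was 1.25 (counting interval 1.04 to 1.48) in Tfh-like and 1.54 (1.33 to 1.77) in Th0 cells. The culture fold was the smallest of the 8 genes, at -0.03 on the log2 scale (SE 0.13, edgeR adjusted p = 0.895).

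Cd160 (chr3:96798763-96829351, minus strand), an HVEM receptor of T and NK cells, was the one gene of the 8 whose Tox2 fold differed at least 2-fold between the cultures. It had 346 counts (7.89 FPKM) in Tfh-like with Tox2 and 77 counts (1.79 FPKM) in Tfh-like with GFP. It had 345 counts (7.57 FPKM) in Th0 with Tox2 and 177 counts (3.94 FPKM) in Th0 with GFP. The Tox2 libraries thus had nearly the same level, and the GFP libraries did not. The log2 fold for Tox2 was 2.10 (counting interval 1.77 to 2.51) in Tfh-like cells and 0.91 (0.65 to 1.19) in Th0 cells. Their difference was 1.20 (0.76 to 1.63). Of all genes, 3.73% had a difference of at least 2-fold with a counting interval that excluded no difference. The same layout read by culture gave a log2 fold, Tfh-like against Th0, of 0.06 (-0.16 to 0.28) with Tox2 and -1.14 (-1.56 to -0.76) with GFP. The difference was not tested, since no degree of freedom is left for it.

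Over both cultures Cd160 rose with Tox2 by a log2 fold of 1.48 (SE 0.28, edgeR adjusted p = 0.0348), with the largest SE of the receptor genes that passed. For culture its log2 fold was -0.46 (SE 0.28, edgeR adjusted p = 0.280), which did not pass. Its call was lost when a trend with gene length (edgeR adjusted p = 0.0618) or with GC content and length (0.0604) was removed, although the log2 fold was then 1.54 in both cases. Cd160 overlaps Pdzk1 on the other strand by 68 bases, and without a stated strand setting reads from the overlap cannot be told apart. Pdzk1 had 80 and 23 counts in Tfh-like with Tox2 and with GFP, and 30 and 15 counts in Th0 with Tox2 and with GFP, fewer than Cd160 in every library. Its part in the values of Cd160 was not tested.

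Btla (chr16:45224315-45257670, plus strand), which binds HVEM and recruits tyrosine phosphatases, was lower with Tox2 and lower in Tfh-like cultures. Its level was 21.1 FPKM in Tfh-like with Tox2 and 33.4 FPKM in Tfh-like with GFP, and 48.2 FPKM in Th0 with Tox2 and 77.3 FPKM in Th0 with GFP. Each culture's Tox2 library was below its GFP library, and both Tfh-like libraries were below both Th0 libraries. Over both cultures Btla fell with Tox2, with a log2 fold of -0.69 (SE 0.10, edgeR adjusted p = 0.0158). The single pairs gave -0.67 (counting interval -0.78 to -0.57) in Tfh-like and -0.71 (-0.78 to -0.64) in Th0 cells. With culture Btla fell further, by a log2 fold of -1.21 (SE 0.10, edgeR adjusted p = 6.00e-04), and it was 2-fold apart between the cultures with either virus.

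HVEM, the product of Tnfrsf14, went the other way from Btla in both comparisons. Tnfrsf14 had 17.8 FPKM in Tfh-like with Tox2 and 11.7 FPKM in Tfh-like with GFP, and 11.3 FPKM in Th0 with Tox2 and 6.46 FPKM in Th0 with GFP. It rose with Tox2 by a log2 fold of 0.68 (SE 0.14, edgeR adjusted p = 0.0420) and with culture by 0.74 (SE 0.14, edgeR adjusted p = 0.0123). The ratio of Btla to Tnfrsf14 was 1.19 in Tfh-like with Tox2 (counting interval 1.06 to 1.33) and 2.85 in Tfh-like with GFP (2.51 to 3.24). It was 4.28 in Th0 with Tox2 (3.79 to 4.86) and 12.0 in Th0 with GFP (10.2 to 14.1). The 4 libraries thus stood apart, lowest in Tfh-like with Tox2 and highest in Th0 with GFP. For Cd160, the other HVEM receptor, the ratio to Tnfrsf14 was 0.444 and 0.152 in Tfh-like with Tox2 and with GFP, and 0.673 and 0.610 in Th0 with Tox2 and with GFP. It was lowest in Tfh-like with GFP. The interval of Th0 with GFP overlapped those of both Tox2 libraries.

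Cd200 (chr16:45382135-45409053, minus strand) encodes the ligand of CD200R1. Its level was 23.9 FPKM in Tfh-like with Tox2 and 58.3 FPKM in Tfh-like with GFP, and 43.3 FPKM in Th0 with Tox2 and 86.5 FPKM in Th0 with GFP. Both Tox2 libraries were below both GFP libraries, and Tfh-like cells were below Th0 cells with either virus. Cd200 fell with Tox2 by a log2 fold of -1.16 (SE 0.11, edgeR adjusted p = 0.00557) and with culture by -0.72 (SE 0.11, edgeR adjusted p = 0.00582). In single pairs the log2 fold for Tox2 was -1.29 (counting interval -1.39 to -1.20) in Tfh-like and -1.02 (-1.09 to -0.95) in Th0 cells, a difference of -0.27 (-0.39 to -0.16).

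Cd200r1 (chr16:44765736-44794978, plus strand), the receptor of CD200, had the fewest counts of the 8 genes. It had 96 counts (2.84 FPKM) in Tfh-like with Tox2 and 39 counts (1.18 FPKM) in Tfh-like with GFP, and 25 counts (0.713 FPKM) in Th0 with Tox2 and 17 counts (0.491 FPKM) in Th0 with GFP. Both Tfh-like libraries had more than both Th0 libraries. The counting intervals of Tfh-like with GFP (0.837 to 1.61 FPKM) and Th0 with Tox2 (0.461 to 1.05 FPKM) overlapped, however. Cd200r1 rose 3.17-fold with culture (log2 fold 1.67, SE 0.33, edgeR adjusted p = 0.0141), a call that was lost with DESeq2 (adjusted p = 0.0891). For Tox2 its log2 fold was 0.97 (SE 0.33, edgeR adjusted p = 0.121), which did not pass. The pairs gave 1.22 (counting interval 0.71 to 1.84) in Tfh-like cells and 0.46 (-0.44 to 1.49) in Th0 cells, so a difference in Th0 cells was not detectable at this depth. Cd200r1 belongs to a family of similar genes, and its reads may be shared among them.

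The ratio of Cd200 to Cd200r1 within a library was 8.40 in Tfh-like with Tox2 (counting interval 6.82 to 10.4) and 49.5 in Tfh-like with GFP (36.1 to 69.7). It was 60.8 in Th0 with Tox2 (41.1 to 94.1) and 176 in Th0 with GFP (110 to 302). Ligand RNA exceeded receptor RNA in every library, least in Tfh-like with Tox2 and most in Th0 with GFP. The intervals of Tfh-like with GFP and Th0 with Tox2 overlapped.

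Ctla4 (chr1:60887000-60915832, plus strand) encodes the receptor that competes with CD28 and was set apart mainly by culture. Its level was 131 FPKM in Tfh-like with Tox2 and 178 FPKM in Tfh-like with GFP, and 70.1 FPKM in Th0 with Tox2 and 85.0 FPKM in Th0 with GFP. Both Tfh-like libraries lay above both Th0 libraries, and in each culture the Tox2 library was the lower one. Ctla4 rose 1.96-fold with culture (log2 fold 0.97, SE 0.10, edgeR adjusted p = 0.00143). For Tox2 the log2 fold was -0.38 (SE 0.10, edgeR adjusted p = 0.0734), and it passed only when libraries were scaled by their total counts (adjusted p = 0.0478). The pairs gave -0.46 (counting interval -0.51 to -0.40) in Tfh-like and -0.31 (-0.38 to -0.23) in Th0 cells. Over the alternatives the fold in Th0 cells ran from -0.33 to -0.15. It lay outside its counting interval when a trend with gene length, or with GC content and length, was removed.

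Cd28 also rose with culture, by a log2 fold of 0.54 (SE 0.11, edgeR adjusted p = 0.0160), and so did Icos, which lies beside Ctla4, by 0.57 (SE 0.11, edgeR adjusted p = 0.0125). The FPKM ratio of Ctla4 to Cd28 was 1.58 in Tfh-like with Tox2 and 1.70 in Tfh-like with GFP, and 1.11 in Th0 with Tox2 and 1.32 in Th0 with GFP. It was above 1 in each library and higher in both Tfh-like libraries than in both Th0 libraries. None of these counting intervals overlapped.

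**Figure D2:**
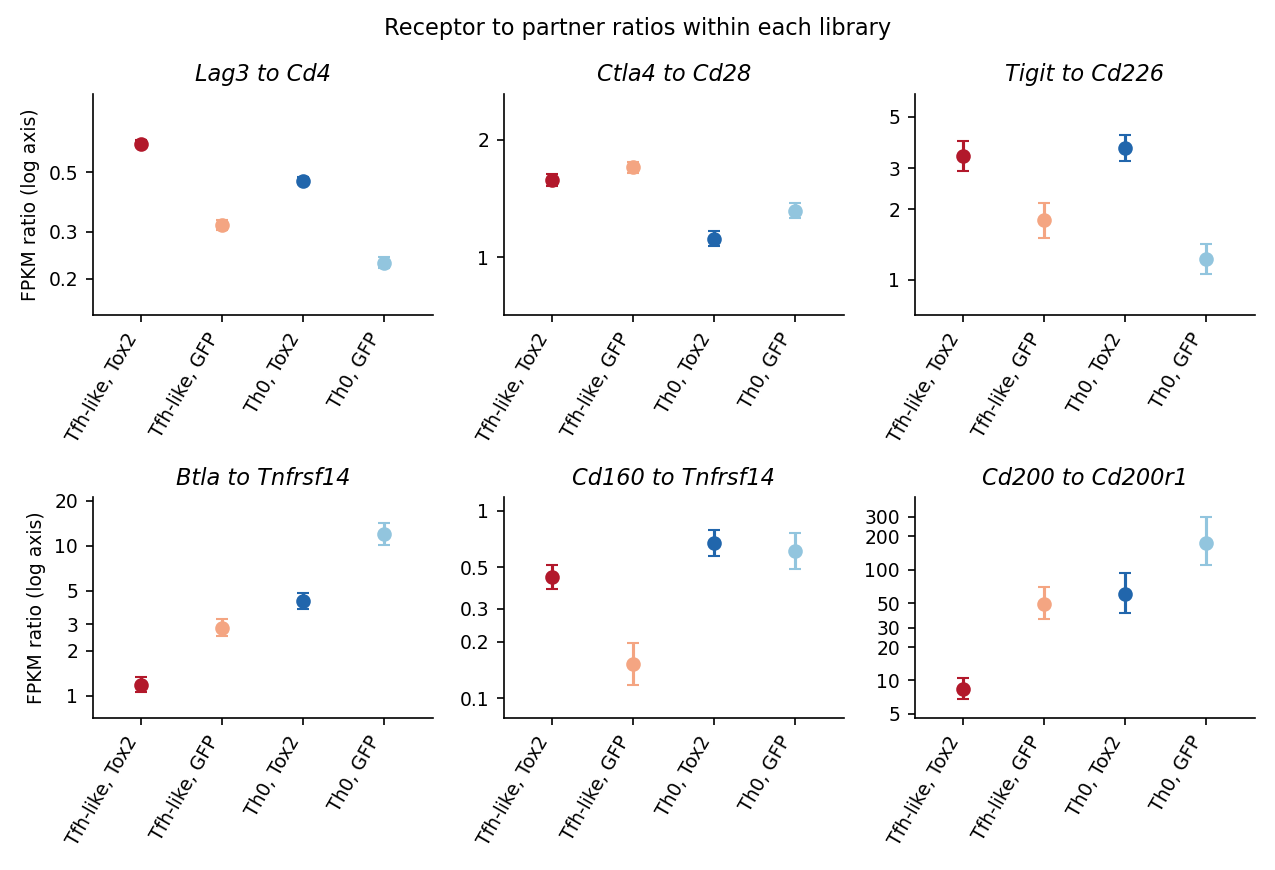
FPKM ratio of each receptor to a partner gene within each of the 4 libraries, on log axes, with exact 95% binomial intervals for counting error as bars. The ratio of Btla to Tnfrsf14 is lowest in Tfh-like with Tox2 (1.19), while its highest value (12.0) is that of Th0 with GFP, and the ratio of Cd200 to Cd200r1 has its lowest (8.40) and highest (176) values in the same libraries.

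Counted by single pairs, 5 of the 8 genes were at least 2-fold apart between Tox2 and GFP in Tfh-like cells, where 4.75% of all genes were, 2.86% higher and 1.9% lower. Lag3, Cd160, Cd101 and Cd200r1 were higher with Tox2 and Cd200 was lower. In Th0 cells 4 of 8 were 2-fold apart, where 4.74% of all genes were (3.18% higher and 1.56% lower), with Lag3, Tigit and Cd101 higher and Cd200 lower. Tigit, Cd200 and Cd160 sat near the 2-fold line in Th0 cells, and each crossed it under at least 1 other setting. Between Tfh-like and Th0 cells, 2 of 8 were 2-fold apart with Tox2 (Cd200r1 higher and Btla lower), where 9.43% of all genes were, 6.56% higher and 2.86% lower. With GFP it was 4 of 8 (Ctla4 and Cd200r1 higher, Btla and Cd160 lower), where 10.9% of all genes were, 7.78% higher and 3.11% lower. The comparisons share libraries with each other, and these counts have no replicate check. For culture with GFP, Ctla4 was under 2-fold when libraries were scaled by their total counts (log2 fold 0.95). Cd200r1 was under 2-fold there with a prior count of 10 (log2 fold 0.89).

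**Figure D3:**
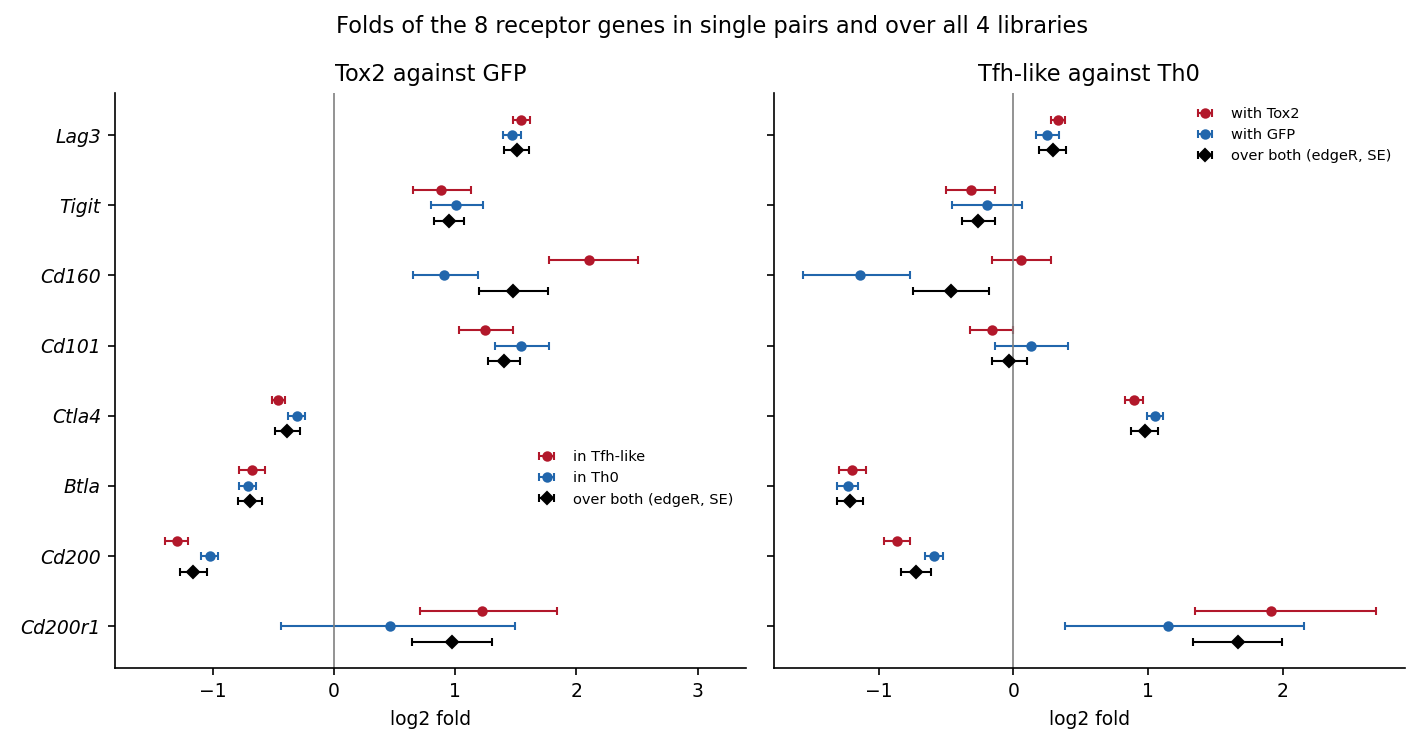
Log2 folds of the 8 receptor genes for Tox2 against GFP (left) and for Tfh-like against Th0 (right). Coloured points are single pairs of libraries with 95% counting intervals, and black diamonds are the edgeR fit over all 4 libraries with its SE. Cd160 is the gene whose pairs stand furthest apart, at 2.10 in Tfh-like and 0.91 in Th0 cells for Tox2.

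The difference of the Tox2 fold between the cultures was small for most of the others. It was 0.08 (counting interval -0.02 to 0.18) for Lag3, 0.04 (-0.09 to 0.16) for Btla, -0.12 (-0.43 to 0.19) for Tigit and -0.29 (-0.60 to 0.01) for Cd101 on the log2 scale. All of these intervals include 0. For Ctla4 the difference was -0.15 (-0.24 to -0.06), which like that of Cd200 was beyond counting error. Over the alternatives the Ctla4 difference ran from -0.30 to -0.10. For Cd200r1 it was 0.76 (-0.24 to 1.76), too wide to place.

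Set on 1 plane of both effects, the genes spread over different corners. Lag3, Cd101, Cd160 and Tigit lay high for Tox2, and none of them passed for culture. Btla and Cd200 lay low in both effects. Ctla4 and Cd200r1 lay high for culture, and neither of them passed for Tox2. Measured as the Euclidean distance of centred log2 CPM over the 4 libraries, the closest patterns were those of Lag3 and Cd101 (0.37). Next to these came Tigit and Cd101 (0.52) and Btla and Cd200 (0.69), and the farthest were Btla and Cd200r1 (3.16). These distances describe 4 libraries and carry no test.

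**Figure D4:**
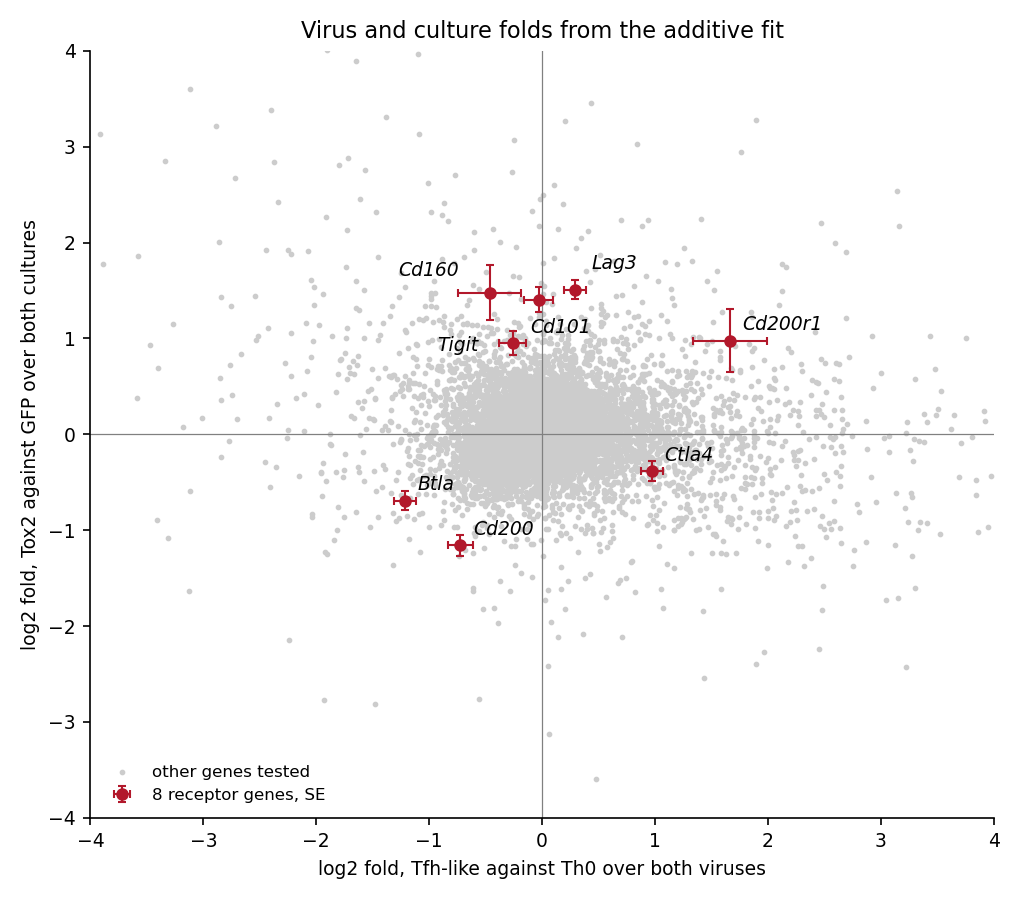
Log2 fold for Tox2 against GFP (vertical) and for Tfh-like against Th0 (horizontal) from the edgeR fit over 4 libraries, with the 8 receptor genes in red with SE bars and other genes in grey. Lag3 stands at 1.51 for Tox2 and 0.29 for culture, and Btla at -0.69 and -1.21, and 67 of all genes tested lie beyond the axes at 4 on either side.

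The make-up of the set changed more than its sum. The levels of the 8 genes summed to 429 FPKM in Tfh-like with Tox2 and 362 FPKM in Tfh-like with GFP, and to 378 FPKM in Th0 with Tox2 and 331 FPKM in Th0 with GFP. That was 0.179% and 0.147% of all FPKM in the Tfh-like libraries with Tox2 and with GFP, and 0.166% and 0.143% in the Th0 libraries with Tox2 and with GFP. Without Lag3 the order by virus turned round, with 224 FPKM in Tfh-like with Tox2 and 292 FPKM in Tfh-like with GFP, and 216 FPKM in Th0 with Tox2 and 274 FPKM in Th0 with GFP. Lag3 made up 47.7% of the sum in Tfh-like with Tox2 and 19.3% in Tfh-like with GFP, and 43.0% in Th0 with Tox2 and 17.4% in Th0 with GFP. Ctla4 made up 30.5% in Tfh-like with Tox2 and 49.3% in Tfh-like with GFP, and 18.5% in Th0 with Tox2 and 25.6% in Th0 with GFP. Lag3 thus led in both Tox2 libraries, Ctla4 in Tfh-like with GFP, and in Th0 with GFP Cd200 came first, with a counting interval that overlapped that of Ctla4.

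Lower in the order, Cd101, Cd160 and Cd200r1 took the last places in every library. In Tfh-like with Tox2 the order was Lag3, Ctla4, Tigit, Cd200, Btla, and the intervals of Tigit and Cd200 overlapped. In Tfh-like with GFP it was Ctla4, Lag3, Cd200, Btla, Tigit, and only Cd160 and Cd200r1 at the low end overlapped. In Th0 with Tox2 it was Lag3, Ctla4, Btla, Cd200, Tigit with no overlap between neighbours, and in Th0 with GFP it was Cd200, Ctla4, Btla, Lag3, Tigit, with an overlap also between Cd101 and Cd160.

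**Figure D5:**
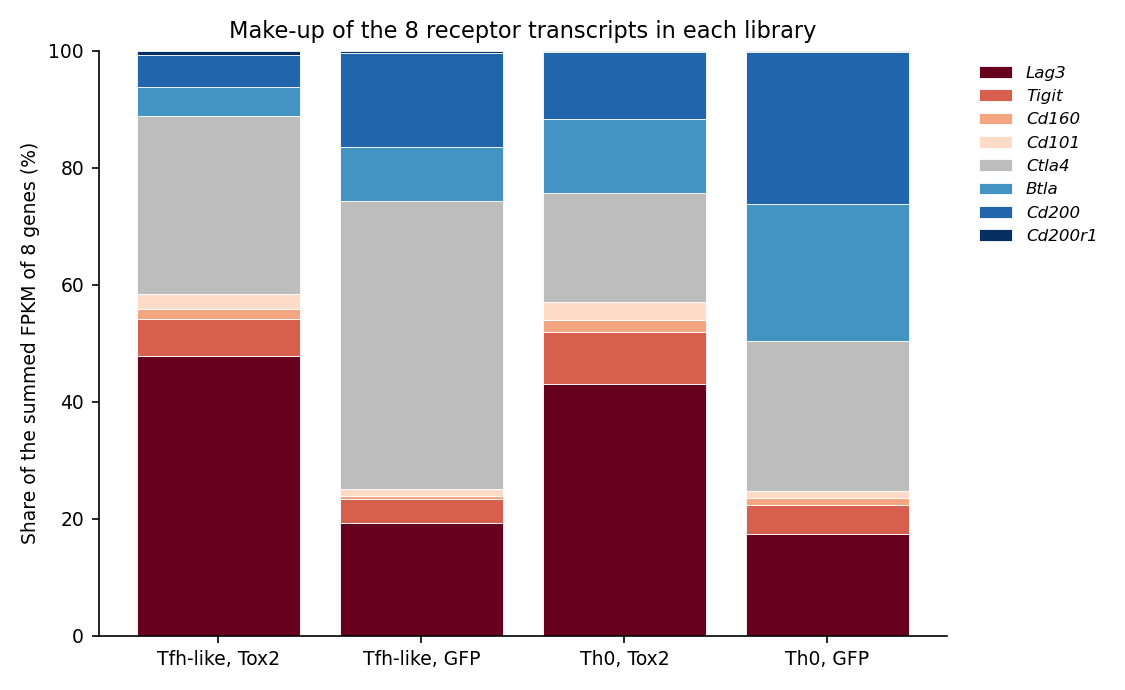
Share of each gene in the summed FPKM of the 8 receptor genes, in percent, stacked from 0 to 100 for each of the 4 libraries. Lag3 fills 47.7% and 43.0% of the Tox2 bars of Tfh-like and Th0 cells, against 19.3% and 17.4% of their GFP bars.

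The counts in the lists of genes that act with these receptors stand against the same shares of all genes, 6.81% passing for Tox2 and 24.2% for culture. Of 15 ligands 7 were listed, and 1 of the 7, Tnfrsf14, rose with Tox2 and none fell. With culture 5 of the 7 passed, 4 higher and 1 lower (14.3% and 9.96% of all genes), with log2 folds of 1.60 (SE 0.10) for H2-Ab1 and 1.51 (SE 0.13) for Lgals3, a galectin that binds LAG-3. H2-Eb1, an MHC class II chain as H2-Ab1 is, fell by a log2 fold of -1.87 (SE 0.30). It had 21 and 29 counts in Tfh-like with Tox2 and with GFP, against 100 and 89 counts in Th0 with Tox2 and with GFP. H2-Aa, another MHC class II gene among the 15 ligands, was not listed, so the class II genes are seen in part only. The smallest of the 5 culture folds was that of Pvr, which encodes CD155, at 0.45 (SE 0.13, edgeR adjusted p = 0.0493), named after its value was seen. The median log2 fold of the listed ligands was -0.11 for Tox2 and 0.45 for culture, against 0.00 and -0.01 over all genes.

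Of 10 partner and counter-receptors 7 were listed, and 3 of the 7 passed for Tox2 (6.81% of all genes) and 4 for culture (24.2%). Cd96 and Cd4 rose with Tox2, and Tnfsf14, which encodes LIGHT, another binding partner of HVEM, fell by a log2 fold of -1.02 (SE 0.10, edgeR adjusted p = 0.00557). Its level was 21.1 and 42.5 FPKM in Tfh-like with Tox2 and with GFP, and 16.1 and 32.2 FPKM in Th0 with Tox2 and with GFP. With culture Cd28, Icos and Tnfsf14 rose and Cd96 fell. Tnfsf14 and Btla thus fell with Tox2 while Tnfrsf14 and Cd160 rose, so the genes of the HVEM group did not move one way. The medians of the list were -0.30 for Tox2 and -0.17 for culture.

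All 14 phosphatases and adaptors were listed, and 3 of the 14 passed for Tox2 (6.81% of all genes) and 4 for culture, near the share of all genes (24.2%). Ptpn6, the phosphatase SHP-1 that BTLA recruits, fell by a log2 fold of -0.61 (SE 0.10, edgeR adjusted p = 0.0250). Cblb, a ubiquitin ligase that restrains T-cell receptor signalling, rose by 0.71 (SE 0.10, edgeR adjusted p = 0.0156), and Ubash3b, a phosphatase that does so too, rose by 0.67 (SE 0.10, edgeR adjusted p = 0.0167). With culture Ptpn2 rose and Ubash3b, Ptpn11 and Pag1 fell. The medians were 0.27 for Tox2 and -0.09 for culture. All 8 genes of receptor trafficking and shedding were listed, and Trat1, an adaptor that associates with CTLA-4, rose with Tox2 by a log2 fold of 1.87 (SE 0.28, edgeR adjusted p = 0.0178). Trat1 had 109 and 33 counts in Tfh-like with Tox2 and with GFP, and 88 and 20 counts in Th0 with Tox2 and with GFP. Adam10, a protease that sheds LAG-3, fell with culture by -0.72 (SE 0.11, edgeR adjusted p = 0.00491), the one gene of that list to pass for culture, and the medians of the list were 0.06 and 0.19.

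Of 19 other inhibitory receptors 11 were listed, with 3 that rose and 2 that fell with Tox2, so 5 of 11 passed, where 4.07% of all genes rose and 2.74% fell. Ceacam1 rose by a log2 fold of 1.88 (SE 0.24), Cd72 by 1.53 (SE 0.31) and Pdcd1, which encodes PD-1, by 0.86 (SE 0.15). Klrc1, an NKG2 receptor, fell by -2.40 (SE 0.25), and Cd5, named after its value was seen, fell by -0.65 (SE 0.09). With culture 2 rose and 5 fell, so 7 of 11 passed, where 24.2% of all genes did. Klrc1 (1.90, SE 0.25) and its partner Klrd1 (1.38, SE 0.31) rose, and Ceacam1 (-2.22, SE 0.24) and Cd72 (-1.21, SE 0.31) were the largest falls. Klrc1 and Ceacam1 have near-identical copies in the mouse, so their counts are uncertain. The medians of -0.02 for Tox2 and -0.08 for culture lay near those over all genes, over members that went both ways.

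The genes whose pattern over the 4 libraries was most like each receptor were sought among 9628 genes by the same distance. For Lag3 they were Coro2b (0.26), Bco2 (0.31) and Ikzf3 (0.36), and for Tigit they included Utrn (0.09) and Siae (0.09). Cd101 had Zdhhc15 (0.15), Ddc (0.27) and Pglyrp1 (0.30). Cd160 had the most distant neighbours, Hdac9 (0.46), Opn3 (0.50) and Lpar6 (0.51). Of the genes that fell, Btla was nearest to Il2 (0.15), Dctd (0.21) and Shmt1 (0.23), and Cd200 was nearest to Etv4 (0.05), Dusp6 (0.18) and Srm (0.24). Ctla4 was nearest to Chst12 (0.05), Pla2g12a (0.08) and Rhbdf2 (0.09), and Cd200r1 to Tnfsf13b (0.18), Rras2 (0.31) and Abat (0.34). With 4 libraries a short distance is easily met, and it carries no statement on shared control.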

How the data were processed

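RNA-seq was measured in 4 libraries, 1 for each combination of virus and culture. The deposited files list read counts per gene, which the authors did not normalize, and FPKM that the authors computed for the same genes, per the file headers. Tools named in the submitters' processing notes are edgeR, featureCounts, Subread, Bowtie2, MACS2 and Trim Galore 0.4.4, with the build mm10. Not given in the sources used here are the annotation, the strand setting and which tool made which column. The tables had been reduced beforehand: the lowest CPM that any listed gene had in its second-highest library was 0.658, so genes silent throughout, or seen in 1 library only, were not analysed here.

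Counts were scaled by TMM over all listed genes (edgeR 4.0.16, R 4.3.3). Genes that reached a CPM of 1 in any library (10960) entered an additive quasi-likelihood fit of virus and culture with 1 residual degree of freedom (common coefficient of variation 0.105, median prior degrees of freedom 5.52), with Benjamini-Hochberg adjustment. "Rose" and "fell" are kept for genes with an adjusted p under 0.05. A gene can pass with unlike folds in Tfh-like and Th0 cells. The SE given for this fit was worked back from its test. It is the size of the log2 fold divided by the square root of the F statistic. Single pairs of libraries are given as log2 folds of CPM with a prior count of 2 and exact 95% conditional binomial intervals, and called 2-fold apart where the fold is at least 2-fold and the interval excludes no difference. Differences of folds have delta-method intervals and are called at least 2-fold by the same rule. Intervals and the limit of 3 counts cover counting error only. Reads that carry no molecular identifier may copy 1 molecule, and counting error may then be larger than the intervals show. Levels between genes are compared in FPKM only. The procedure was tested on simulated data.

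Loci are from GENCODE M21 on GRCm38, the assembly of mm10, and 11022 of 11027 gene symbols matched it. The receptors and the lists around them were chosen with earlier results of these data known. Named are all 8 receptors, list genes that pass either test (up to 4 per list and effect by size), the partners in the ratios, the 3 nearest patterns whose mean CPM reaches 5, and the nearest listed genes on the chromosome. A gene that this rule takes is not reported here. The ratio of Cd160 to Tnfrsf14 was added after the data were seen. Alternatives were other scalings (edgeR's RLE method in place of TMM, total counts, the authors' own) and other filters and prior counts. Also run were DESeq2 1.42.0, limma-voom (limma 3.58.1), and removal of trends with gene length and GC content.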

Additional observations from a re-analysis of the deposited data

How the results depend on the processing

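With 10 alternatives for each value, the folds of the 8 receptor genes in the edgeR fit changed sign under none. Between 5 and 7 of the 8 passed for Tox2 and 3 or 4 for culture. The exceptions were Ctla4, Cd160 and Cd200r1, given with those genes in the report. The number 2-fold apart stayed at 5 for Tox2 in Tfh-like and 2 for culture with Tox2, and was 3 or 4 in both other pairs. The larger difference of the Tox2 fold for Cd160 was there under each alternative. Counts over all genes moved more: 746 passed for Tox2, against 1193 with scaling by total counts, 492 with DESeq2, 367 with a length trend removed and 400 with GC and length trends removed, and 2656 passed for culture, against 1619 with DESeq2. TMM over the filtered genes, an alternative chosen after seeing the data, gave 635 and 2520 genes. Leaving out a library was not run as a test, since no residual degree of freedom remains. No paired analysis was possible because each group has 1 library and the labels give no replicate numbers. Depth limits Cd200r1 most, with 17 to 96 counts.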

Other observations

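Tigit, Cd200r1, Btla and Cd200 lie within 1760187 bases of chromosome 16 (43648867 to 45409053, GRCm38), among 16 listed genes. Tigit rose and Btla and Cd200 fell with Tox2, and of the 12 other listed genes in the stretch 0 passed for Tox2 and 2 for culture in the edgeR fit, where 6.81% and 24.2% of all genes did, so a count of 0 among so few genes says little. Btla and Cd200, which both fell in both comparisons, are 124465 bases apart with no listed gene between them. On the outer side of Tigit, 6265 bases away, Zbtb20, a zinc-finger transcription factor, rose with Tox2 by a log2 fold of 1.07 (SE 0.14, edgeR adjusted p = 0.0135). On the side of Lag3 away from Cd4, 1976 bases away, Ptms rose with Tox2 by 0.64 (SE 0.10, edgeR adjusted p = 0.0190). Ptgfrn, a neighbour of Cd101 at 10676 bases, rose with culture by 1.19 (edgeR adjusted p = 0.00126), while Cd101 did not pass for culture. The remaining nearest listed genes, Ccdc191, Atg3, Rnf115, Gpr89, Ttf2, Abhd10, Gtpbp8 and Slc35a5, passed for neither Tox2 nor culture.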
